A study of Mus musculus with 15 samples.

Results

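Amino acid transporter genes were taken here as all genes of the solute carrier families Slc1, Slc3, Slc6, Slc7, Slc36, Slc38 and Slc43, chosen by symbol alone. Of 20660 genes named on the array, 59 belonged to these families, and 49 of them were measured well enough to be tested among 17338 genes. Levels came from total RNA of whole pancreas of male C57BL/6J mice, with 1 array per animal, and the precision is limited by this number. The groups were 4 wild type (WT) mice given saline, 4 WT mice given cerulein, 3 transgenic (TG) mice given saline and 4 TG mice given cerulein. Cerulein, a peptide that acts on the cholecystokinin receptor of acinar cells, is used to bring on acute pancreatitis in rodents. The mice had been fasted for 18 h before a single dose of 50 µg/kg cerulein or the saline vehicle was given into the peritoneum, and the pancreas was taken after 3 h. The sample titles, however, give 0 h for the saline (sham) groups and 3 h for the cerulein groups. The labels say only that a mouse was transgenic, the series title names betacellulin, and the promoter and line of the transgene are not given in the sources used here.

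Acinar cells make and secrete large amounts of digestive enzyme and therefore take up amino acids at a high rate. Slc7 light chains that pair with the heavy chains Slc3a2 or Slc3a1 exchange 1 amino acid for another, while the cationic Slc7 carriers, Slc38 system A and N carriers and many Slc6 carriers move their substrates without a heavy chain. Many of these genes are known targets of Atf4, a transcription factor made when the eIF2alpha kinases are active, which binds a composite C/EBP-ATF element. The Slc6 family also holds carriers of monoamines, GABA and creatine, which the choice by symbol includes.

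Levels are log2 signals relative to the 75th percentile of each array, so that 0 is the level of that percentile. Probes differ in brightness for reasons other than transcript amount, and no gene's level is set against another's. Of the 59 genes, 36 were well above background on all 15 arrays, and Slc6a14, Slc6a2 and Slc7a13 on none. Slc1a2, Slc38a8, Slc6a18, Slc6a19, Slc6a21, Slc7a12 and Slc7a9 were well above background on 1 or 2 arrays and were not tested either. The acinar markers were bright on all arrays: 8 of 9 were tested, each well above background on all 15, and their summed log2 level was 13.43 to 14.18 in WT saline, 12.72 to 13.82 in WT cerulein, 13.27 to 13.87 in TG saline and 12.4 to 13.36 in TG cerulein mice. The single Btc probe did not separate the genotypes: its level was -5.53 to -3.63 in WT saline and -4.29 to -3.56 in TG saline mice, a difference of 0.55 ± 0.48 (adjusted p = 1 in limma). It was well above background on only 1 of 4 WT and 2 of 3 TG saline arrays, and on every cerulein array. After cerulein the genotypes differed by 0.49 ± 0.45 (adjusted p = 0.838 in limma). Whether that probe lies within the transgene is not given in the sources used here. The arrays lay on 3 slides, each scanned once. Slide 2 held 2 WT cerulein arrays and 1 TG cerulein array and no saline array, so results are also given with the slide as a term and within slides 1 and 3. Slide 1 held 2 TG cerulein arrays and 1 array of each other group. Slide 3 held 3 WT saline, 2 TG saline, 1 WT cerulein and 1 TG cerulein array. Each difference within slide 1 or 3 thus has at least 1 group with a single array.

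Promoter sequences of 4 genes that were called after cerulein in at least 1 of the fits below, and of the start of Slc1a4, which holds the same motif, are shown first. Sequences are from RefSeq (GRCm38.p6), 5′ to 3′ on the strand of the gene, with the last base next to the start of the transcript. Capitals mark matches to TGATGNAA, the core of the composite C/EBP-ATF element, on either strand.
Slc7a11, chr3:50443614-50443713, minus strand: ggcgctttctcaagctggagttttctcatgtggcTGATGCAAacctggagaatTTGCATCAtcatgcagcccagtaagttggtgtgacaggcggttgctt
Slc38a2, chr15:96699729-96699828, minus strand: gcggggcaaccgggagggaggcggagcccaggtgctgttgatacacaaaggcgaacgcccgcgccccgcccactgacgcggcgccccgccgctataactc
Slc3a2, chr19:8713898-8713997, minus strand: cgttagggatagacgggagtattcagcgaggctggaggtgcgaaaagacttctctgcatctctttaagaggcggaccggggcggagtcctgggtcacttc
Slc38a9, chr13:112660666-112660765, plus strand: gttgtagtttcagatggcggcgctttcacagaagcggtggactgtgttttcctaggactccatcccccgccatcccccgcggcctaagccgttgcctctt
Slc1a4, chr11:20332699-20332728, minus strand, spanning the start: tgcctcctgcgTTGCATCAtctccagcctg

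The Slc7a11 promoter held 2 such matches, on opposite strands, beginning 66 and 47 bases before the start. Windows from 250 bases before to 50 after the start were available for 43 of the genes, 35 of them tested. TGATGNAA occurred in the windows of 4 of the 43 genes: Slc7a11, Slc1a4, Slc7a7 and Slc6a21. Of all 27025 RefSeq genes with windows, 4.51% held it. TGACGTCA, the cyclic AMP response element, occurred in the window of Slc38a6 and in those of 2.03% of all genes. No window was listed for Slc7a3, Slc1a5, Slc38a3, Slc7a5 or Slc38a1. These matches describe letters and are not evidence of binding.

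The first comparison asks how the transporter genes of the WT pancreas stood 3 h after cerulein. Of 49 genes, 5 passed limma's test (adjusted p below 0.05), 2 higher and 3 lower. This was 10.2% of the members, while 14% of all 17338 genes were called, 5.63% higher and 8.35% lower. Slc7a11, the light chain of the cystine and glutamate exchanger xCT, and Slc7a3, the cationic transporter CAT3 that carries arginine and lysine, rose. The lysosomal transporter and arginine sensor Slc38a9, the system N glutamine transporter Slc38a3 and the serotonin transporter Slc6a4 fell. In TG mice 6 of 49 passed, 4 higher and 2 lower. This was 12.2% of the members, while 8.2% of all genes were called, 4.78% higher and 3.42% lower. In these mice Slc7a11, Slc7a3, the system A carrier Slc38a2 and the glutamine exchanger Slc1a5 rose, and Slc38a9 and Slc38a3 fell. In whole tissue RNA, fewer cells of a type and less RNA per cell cannot be told apart. The calls for 4 genes, Slc7a11, Slc7a3, Slc38a9 and Slc38a3, were made in both genotypes. The median difference over the 49 genes was 0.05 in WT and 0.08 in TG mice, beside -0.06 and -0.06 over all genes. The WT groups did not overlap for 9 of the 49 genes (17.4% of all genes) and the TG groups for 8 (21.6% of all genes). With 1 array left out the WT count of calls ranged from 2 without WT saline replicate 8 to 12 without WT cerulein replicate 10; it was 3 without WT saline replicate 6 or 7 or WT cerulein replicate 11 and 8 without WT saline replicate 5. The TG count was 3 without TG saline replicate 3 or TG cerulein replicate 14 or 16 and 7 without TG cerulein replicate 13. Counts over all genes in these fits are not given here. Whether the shifts are particular to the transporters thus cannot be read from them.

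**Figure D1:**
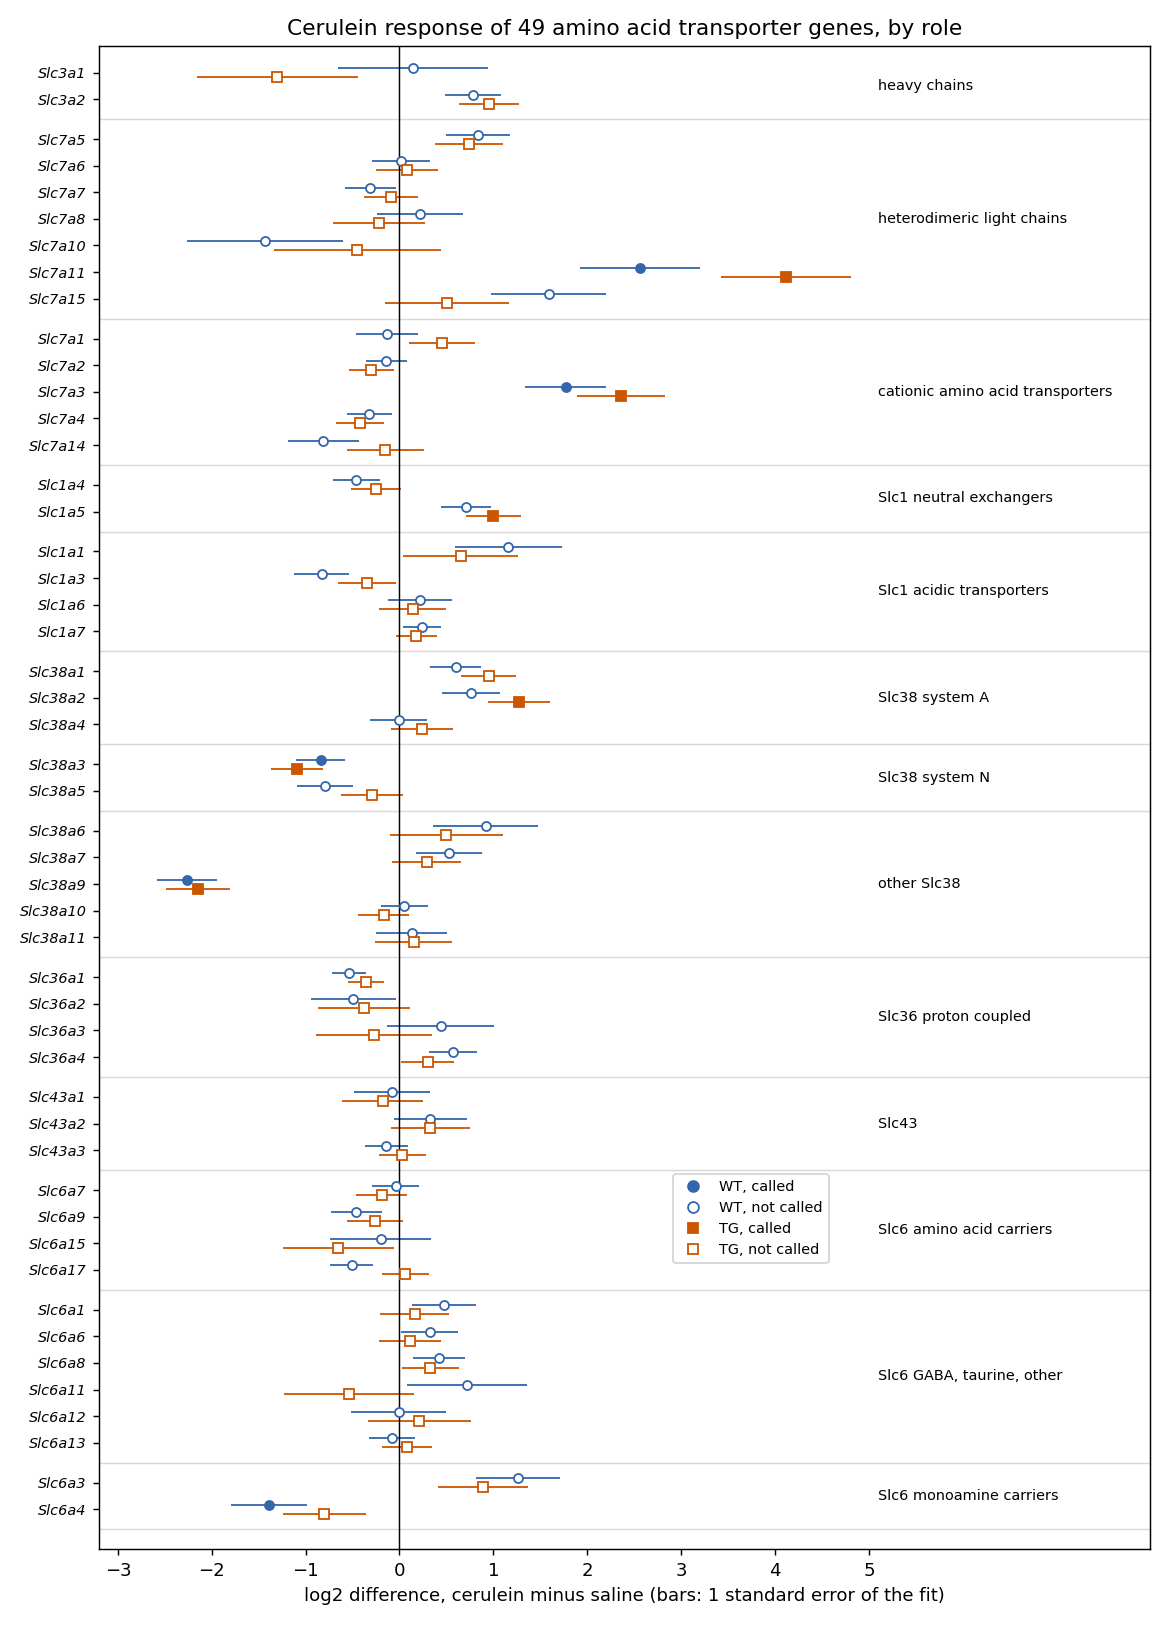
Log2 difference between cerulein and saline (x axis) for each of 49 transporter genes (y axis, grouped by role) in WT mice (circles, 4 against 4 arrays) and TG mice (squares, 4 against 3), with bars of 1 standard error from limma and filled symbols for adjusted p below 0.05. Symbols are open for 42 of the 49 genes in both genotypes, and Slc7a11 (2.56 and 4.12) and Slc7a3 (1.77 and 2.36) lie on the right and Slc38a9 (-2.26 and -2.15) on the left.

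Among the exchangers, Slc7a11 rose in both genotypes. Its level was -3.42, -3.18, -2.15 and -4.8 in the WT saline mice and -0.49, -0.45, -1.48 and -0.9 in the WT cerulein mice. In TG mice it was -6.02, -5.52 and -2.66 after saline and -1.24, -0.43, -0.36 and -0.42 after cerulein. All 8 cerulein arrays lay above all 7 saline arrays. The difference was 2.56 ± 0.64 in WT mice (5.88-fold, adjusted p = 0.0166 in limma) and 4.12 ± 0.69 in TG mice (17.4-fold, adjusted p = 0.00183 in limma). The saline level was close to the detection limit: the probe was well above background on 3 of 4 WT and 1 of 3 TG saline arrays and on all 8 cerulein arrays, so the size of the fold rests on dim spots. With the normexp background correction, which adds an offset of 50 intensity units, the differences were 0.89 and 1.44, still called, and smaller than those of Slc7a3 in the same setting (1.75 and 2.36). Within slide 1 the WT and TG differences were 2.93 and 5.18, and within slide 3 they were 2.92 and 3.74. The WT call was lost without WT saline replicate 8 (adjusted p = 0.057) and without slide 2. The TG response exceeded the WT response by 1.57 ± 0.94 (95% interval -0.45 to 3.58, adjusted p = 1 in limma), a difference that was not called.

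The heavy chain that Slc7a11 and Slc7a5 need at the cell surface, Slc3a2 (4F2hc or CD98), showed smaller differences in the same direction. WT saline levels were 5.33, 5.51, 5.11 and 4.94, and WT cerulein levels 6.1, 6.87, 5.52 and 5.5. TG saline levels were 5.07, 5.19 and 5.21, and TG cerulein levels 5.89, 6.21, 6.68 and 5.66. The TG groups did not overlap and the WT groups overlapped, with the lowest cerulein array at 5.5 and the highest saline array at 5.51. The differences of 0.78 ± 0.30 in WT and 0.95 ± 0.32 in TG mice were not called (adjusted p = 0.0954 and 0.0896 in limma). With the slide as a term they were 1.27 ± 0.21 and 1.25 ± 0.21 and were called (adjusted p = 0.00119 and 0.00116 in limma).

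Slc7a5 (LAT1), the Slc3a2 partner that exchanges large neutral amino acids such as leucine, had an uncalled difference of like size. Its level was 2.35, 2.64, 2.39 and 1.27 in WT saline and 3.16, 3.52, 2.95 and 2.4 in WT cerulein mice, and 2.34, 2.66 and 3.1 in TG saline and 3.43, 3.61, 3.91 and 2.8 in TG cerulein mice. The groups overlapped in both genotypes, and the differences of 0.84 ± 0.34 and 0.74 ± 0.36 were not called (adjusted p = 0.107 and 0.259 in limma). After adjustment for the slide they were 1.28 ± 0.32 and 0.99 ± 0.32 and were called. A dimmer Slc7a5 probe gave 0.51 and 0.34.

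The other light chains did not pass the test in either genotype. Slc7a8 (LAT2), a neutral exchanger, differed by 0.22 ± 0.46 (95% interval -0.76 to 1.20) in WT and by -0.22 ± 0.49 (-1.28 to 0.83) in TG mice. Slc7a6 and Slc7a7, the light chains of the y+L exchangers of cationic and neutral amino acids, differed by 0.02 ± 0.31 and -0.31 ± 0.27 in WT mice and by 0.08 ± 0.33 and -0.09 ± 0.29 in TG mice. Slc7a10, a neutral exchanger, differed by -1.43 ± 0.83 in WT mice and was well above background on 2 WT saline arrays and 1 WT cerulein array. Slc7a15 was well above background on none of the WT saline arrays and 3 of the WT cerulein arrays. On group means it was at least 1.71-fold higher after cerulein, counted against the lowest signal well above background on each array, and was not called (adjusted p = 0.0957 in limma). The WT groups overlapped, at -5.66 to -3.75 after saline and -4.88 to -1.59 after cerulein. The WT difference turned in sign in 1 alternative setting (-0.09). The heavy chain Slc3a1 was well above background on none of the WT saline arrays and on 1 array of each other group.

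Among the cationic carriers, the rise was seen in Slc7a3. WT saline levels were 0.92, 1.9, 2.49 and 1.12, and WT cerulein levels 3.45, 4.22, 2.53 and 3.29. TG saline levels were 0.87, 1.53 and 2, and TG cerulein levels 3.1, 4.02, 4.57 and 3.63. The probe was well above background on every array. Every cerulein array lay above every saline array, although the lowest WT cerulein array (2.53) was close to the highest WT saline array (2.49). The differences were 1.77 ± 0.43 in WT mice (3.41-fold, adjusted p = 0.0145 in limma) and 2.36 ± 0.47 in TG mice (5.15-fold, adjusted p = 0.00547 in limma). With a slide term they were 2.36 ± 0.35 and 2.81 ± 0.34, and within slides 1 and 3 they ranged from 2.39 to 2.54 in WT mice and from 2.69 to 2.81 in TG mice. The WT call was lost with the array median in place of the 75th percentile. Slc7a1 (CAT1), the widely expressed arginine transporter, differed by -0.13 ± 0.33 in WT and 0.45 ± 0.35 in TG mice, and Slc7a2 (CAT2) by -0.14 ± 0.22 and -0.30 ± 0.24, none of them called. With the slide as a term Slc7a1 was called in TG mice (0.78 ± 0.23, adjusted p = 0.0274 in limma).

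**Figure D2:**
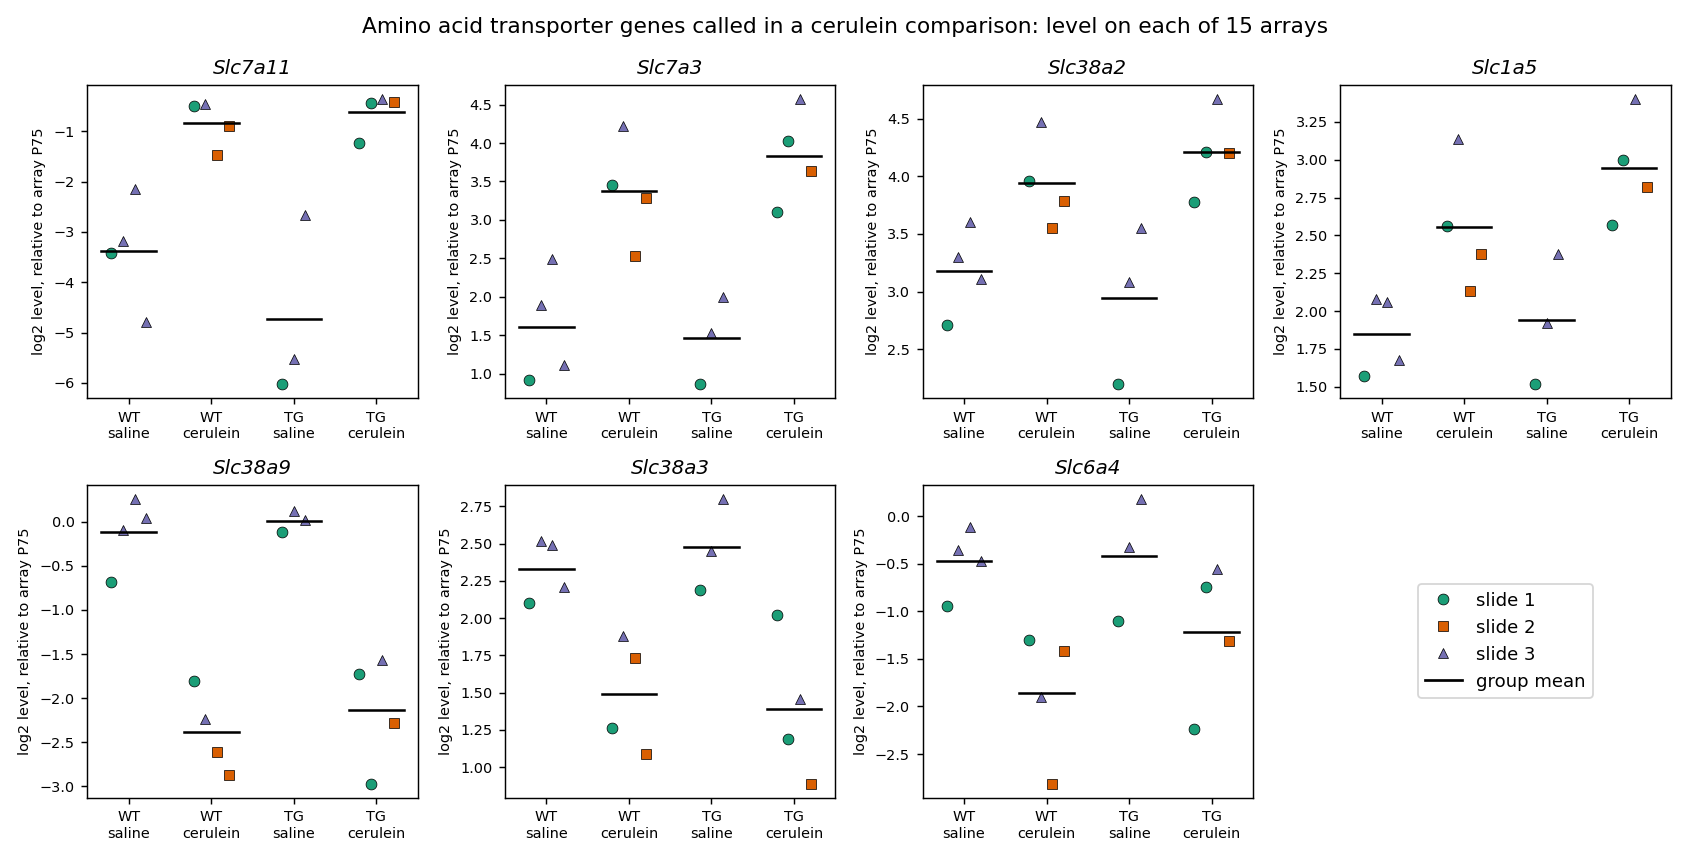
Log2 level relative to the array's 75th percentile (y axis) of the 7 transporter genes called in at least 1 cerulein comparison, for each of 15 arrays in 4 groups (x axis), with symbols for the 3 slides and a line at each group mean. Slc7a11 and Slc7a3 are higher and Slc38a9 is lower on every cerulein array than on every saline array of the same genotype.

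In the Slc1 family 1 gene was called. Slc1a5 (ASCT2), which brings in glutamine, was at 1.57, 2.08, 2.06 and 1.68 in WT saline and 2.56, 3.14, 2.13 and 2.38 in WT cerulein mice. It was at 1.52, 1.92 and 2.38 in TG saline and 2.57, 3, 3.4 and 2.82 in TG cerulein mice. Neither pair of groups overlapped. The difference was 1.00 ± 0.29 in TG mice (2-fold, adjusted p = 0.0453 in limma), a call lost without slide 2 and when any of TG saline replicates 2 and 3 and TG cerulein replicates 14, 15 and 16 was left out. It was also lost with the array median, no filter on dim probes, the mean of the gene's probes or only the 2 groups fitted. The WT difference was 0.71 ± 0.27 (adjusted p = 0.09 in limma) and was called with the slide as a term (1.07 ± 0.18, adjusted p = 0.00131 in limma). A second Slc1a5 probe gave 0.63 and 0.79. Slc1a4 (ASCT1), which carries serine and alanine and whose start the printed motif spans, differed by -0.46 ± 0.25 (95% interval -0.99 to 0.08) and -0.25 ± 0.27 (-0.83 to 0.33). The glutamate and aspartate carriers Slc1a1, Slc1a3, Slc1a6 and Slc1a7 did not pass the test in either genotype, with differences of -0.83 to 1.16 in WT mice and -0.35 to 0.65 in TG mice.

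The Slc38 family held changes in both directions. Slc38a2 (SNAT2), the system A carrier of small neutral amino acids, was at 2.71, 3.3, 3.6 and 3.11 in WT saline and 3.96, 4.47, 3.55 and 3.79 in WT cerulein mice. It was at 2.2, 3.08 and 3.55 in TG saline and 3.78, 4.21, 4.67 and 4.2 in TG cerulein mice. The TG groups did not overlap, and in WT mice 1 cerulein array lay below the highest saline array. The difference was 1.27 ± 0.33 in TG mice (2.41-fold, adjusted p = 0.0293 in limma) and 0.76 ± 0.31 in WT mice (adjusted p = 0.111 in limma). In the slide-adjusted fit it was 1.58 ± 0.20 and 1.14 ± 0.20, called in both. Without the slide term the TG call was lost when slide 2 or any of TG saline replicates 2 and 3 and TG cerulein replicates 14, 15 and 16 was left out. It was also lost with the array median and when only the 2 groups were fitted. Slc38a1 (SNAT1), also of system A, differed by 0.60 ± 0.27 in WT and 0.95 ± 0.29 in TG mice (adjusted p = 0.145 and 0.0592 in limma). Adjusted for slide, the TG difference was 0.98 ± 0.31 and was called (adjusted p = 0.0409 in limma). The 2 dimmer Slc38a1 probes gave 1.28 and 1.25 in WT mice and 0.38 and 1.19 in TG mice.

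Slc38a9, a lysosomal amino acid transporter that signals arginine to the mTORC1 kinase, fell in both genotypes. Its level was -0.68, -0.09, 0.26 and 0.04 in WT saline and -1.81, -2.24, -2.61 and -2.87 in WT cerulein mice. It was -0.11, 0.12 and 0.02 in TG saline and -1.73, -2.97, -1.57 and -2.28 in TG cerulein mice. Every cerulein array lay below every saline array, and the probe was well above background on all 15 arrays. The difference was -2.26 ± 0.32 in WT mice (4.81-fold lower, adjusted p = 0.000325 in limma) and -2.15 ± 0.34 in TG mice (4.44-fold lower, adjusted p = 0.00126 in limma). Within slide 1 it was -1.13 in WT and -2.24 in TG mice, and within slide 3 it was -2.31 and -1.64. The 2 other Slc38a9 probes gave -2.08 and -2.04 in WT mice and -1.52 and -1.64 in TG mice. Both calls were also made in all other settings tried and with each array of the compared groups left out in turn. The smallest differences were -1.51 and -1.4, with normexp.

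Slc38a3 (SNAT3), the system N carrier of glutamine, histidine and asparagine, was at 2.1, 2.52, 2.49 and 2.21 in WT saline and 1.26, 1.88, 1.73 and 1.09 in WT cerulein mice. It was at 2.19, 2.45 and 2.8 in TG saline and 2.02, 1.19, 1.46 and 0.89 in TG cerulein mice. Neither pair of groups overlapped. The differences were -0.84 ± 0.26 (1.79-fold lower, adjusted p = 0.0463 in limma) and -1.09 ± 0.28 (2.12-fold lower, adjusted p = 0.0283 in limma). With the slide as a term they were -0.58 ± 0.26 and -0.91 ± 0.25, and the WT call was lost (adjusted p = 0.142 in limma). Leaving out 1 array ended the WT call for 6 of the 8 arrays concerned (WT saline replicates 6, 7 and 8 and WT cerulein replicates 9, 11 and 12) and the TG call for 4 of 7 (TG saline replicates 3 and 4 and TG cerulein replicates 14 and 16). Both calls were also lost with the array median, without slide 2 and with only the 2 groups fitted. The WT call was lost with no filter on dim probes as well. All 8 tested acinar markers had differences below 0, with a median of -0.8 in WT mice (2 called lower) and -0.68 in TG mice (1 called lower). In the mean of both genotypes all 8 were called lower (median -0.74, beside -0.96 for Slc38a3). With the slide as a term that median was -0.3, and 4 were called. Their part in the fall of Slc38a3 was not tested.

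Slc38a5 (SNAT5), the other system N carrier, differed by -0.79 ± 0.30 in WT and -0.29 ± 0.33 in TG mice and was not called. Its levels ranged from 5.47 to 6.29 in WT saline, 4.48 to 5.73 in WT cerulein, 4.66 to 5.79 in TG saline and 4.72 to 5.19 in TG cerulein mice. Slc38a6, Slc38a7, Slc38a10 and Slc38a11, for most of which less is known, differed by 0.05 to 0.92 in WT mice and by -0.17 to 0.50 in TG mice, none called. On adjustment for the slide the differences of Slc38a6 were -0.20 and -0.21.

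The proton-coupled carriers of the lysosome and plasma membrane, Slc36a1 to Slc36a4, were not called in either genotype without the slide in the fit. Slc36a1 (PAT1) differed by -0.54 ± 0.18 in WT and -0.36 ± 0.19 in TG mice (adjusted p = 0.0576 and 0.309 in limma). Adjusted for slide, the WT difference was -0.49 ± 0.15 and was called (adjusted p = 0.0361 in limma). Its second probe gave 0.41 and 0.15 without the slide, so that its probes disagreed in sign. Slc36a4 differed by 0.57 ± 0.26 and 0.30 ± 0.28 and was called with the slide as a term (1.01 ± 0.17 and 0.56 ± 0.17). Its WT difference turned in sign in 1 other setting (-0.08). The uniporters of large neutral amino acids Slc43a1 and Slc43a2 differed by -0.08 ± 0.40 and 0.33 ± 0.39 in WT mice and by -0.18 ± 0.43 and 0.33 ± 0.42 in TG mice.

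In the Slc6 family 12 genes were tested and 1 was called in the 2 genotypes taken singly. Slc6a4, the serotonin transporter, was at -0.95, -0.36, -0.11 and -0.47 in WT saline and -1.3, -1.9, -2.81 and -1.42 in WT cerulein mice. It was at -1.1, -0.33 and 0.18 in TG saline and -2.24, -0.75, -0.56 and -1.31 in TG cerulein mice. The WT groups did not overlap and the TG groups did. The WT difference was -1.39 ± 0.41 (2.61-fold lower, adjusted p = 0.0374 in limma), and the TG difference -0.80 ± 0.44 was not called. In the slide-adjusted fit the WT difference was -1.05 ± 0.45 and the call was lost (adjusted p = 0.125 in limma), as it was without any of WT saline replicates 6, 7 and 8 or WT cerulein replicate 11. The array median and leaving out slide 2 also ended it. Slc6a9 (GlyT1), the glycine transporter, differed by -0.46 ± 0.27 (95% interval -1.05 to 0.12) and -0.26 ± 0.30 (-0.89 to 0.38), and a second probe gave -0.50 and -0.22. The taurine transporter Slc6a6 and the creatine transporter Slc6a8 differed by 0.32 ± 0.30 and 0.42 ± 0.28 in WT mice. Adjusted for slide, the WT difference of Slc6a6 was 0.79 ± 0.23 and was called (adjusted p = 0.03 in limma).

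**Figure D3:**
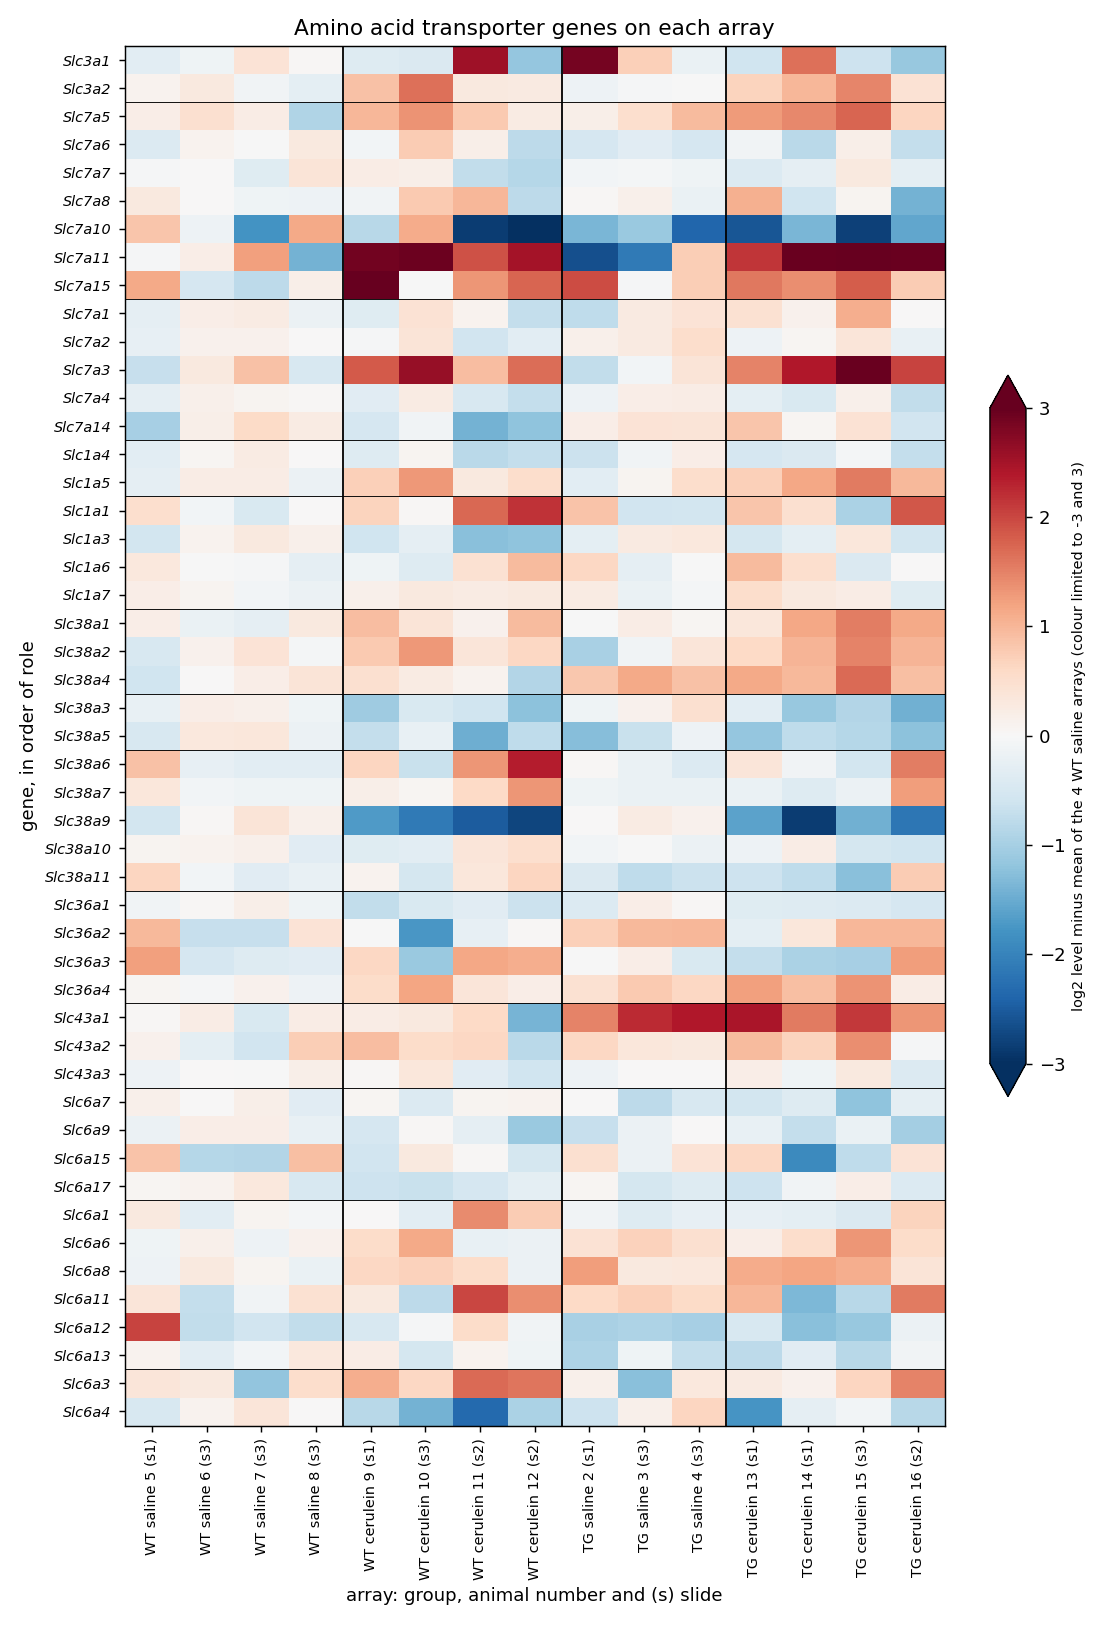
Log2 level of each of 49 transporter genes (rows, in order of role) on each of 15 arrays (columns, by group, with the slide as s1 to s3), less the mean of the 4 WT saline arrays and with the colour limited to -3 and 3. Slc7a11 and Slc7a3 are red and Slc38a9 is blue across the cerulein columns, Slc43a1 is red across all TG columns, and Slc38a6 is red on the 3 slide 2 arrays (WT cerulein 11 and 12 and TG cerulein 16).

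With the slide as a term, 10 of 49 genes were called in WT mice (8 higher and 2 lower, beside 21.6% of all genes) and 11 in TG mice (9 higher and 2 lower, beside 23.5% of all genes), and 8 of these in both. The 8 were Slc7a11, Slc7a3, Slc3a2, Slc7a5, Slc1a5, Slc38a2 and Slc36a4, all higher, and Slc38a9, lower. These shares of the members were near those of all genes. The mean of the WT and TG responses, a comparison chosen after seeing the data, called 12 of 49. This was 24.5% of the members, while 27.1% of all genes were called, 10.1% higher and 17% lower. The 8 higher genes were Slc7a11 (3.34 ± 0.47), Slc7a3 (2.07 ± 0.32), the dopamine transporter Slc6a3 (1.07 ± 0.33), Slc38a2 (1.02 ± 0.23), Slc3a2 (0.86 ± 0.22), Slc1a5 (0.85 ± 0.20), Slc7a5 (0.79 ± 0.25) and Slc38a1 (0.78 ± 0.20). The 4 lower genes were Slc38a9 (-2.21 ± 0.23), Slc6a4 (-1.09 ± 0.30), Slc38a3 (-0.96 ± 0.19) and Slc36a1 (-0.45 ± 0.13). The call for Slc6a4 was lost with the slide as a fixed term (-0.79 ± 0.34, adjusted p = 0.0966 in limma), as a random block, without slide 2 and without TG saline replicate 4. Leaving out any of WT saline replicate 8, WT cerulein replicate 9, TG saline replicates 2 and 3 and TG cerulein replicate 14 ended the call for Slc7a5, and leaving out TG saline replicate 3 or 4 that for Slc36a1. Slc6a3 was dim, its call was lost with the slide as a term and without any of WT cerulein replicates 11 and 12, TG saline replicate 3 and TG cerulein replicate 16, and its sign turned with normexp (-0.18).

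Genes around the transporters were read from lists chosen by function. Of 17 tested genes of Atf4 and its targets outside transport, 9 rose and 0 fell in WT mice and 10 rose and 0 fell in TG mice, with medians of 1.78 and 2.20 beside -0.06 over all genes. This was 52.9% and 58.8% of the list, beside 14% and 8.2% of all genes. Adjusted for slide, 14 and 15 were called higher, in fits that called 21.6% and 23.5% of all genes in either direction. Atf3, a stress-induced transcription factor, rose by 9.89 ± 0.29 and 9.75 ± 0.31, with 2 of 4 WT and 2 of 3 TG saline arrays well above background, and Chac1, which degrades glutathione, by 6.07 ± 0.65 and 6.26 ± 0.70. Atf4 itself rose by 1.78 ± 0.36 and 2.22 ± 0.39 (adjusted p = 0.00486 and 0.00263 in limma).

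Of 20 cytosolic aminoacyl-tRNA synthetase genes, which charge tRNAs with amino acids, 2 rose in WT mice and 4 in TG mice and none fell. This was 10% and 20% of the list, beside 5.63% and 4.78% of all genes called higher. With slides in the fit 9 were called higher in WT and 13 in TG mice (medians 0.6 and 0.85) and none lower. That fit called 21.6% and 23.5% of all genes in either direction. Aars, for alanine, rose by 1.56 ± 0.34 and 1.85 ± 0.37, Gars, for glycine, by 1.18 ± 0.31 and 1.59 ± 0.34, and Cars, for cysteine, by 1.70 ± 0.45 in TG mice. The mean Cars level in WT mice was 2.72 after saline and 3.81 after cerulein. Of 25 genes of amino acid synthesis and use, 1 rose and 3 fell in WT mice and 1 rose in TG mice, which is 16% and 4% of the list beside 14% and 8.2% of all genes. With slides in the fit 9 were called higher and 3 lower in WT mice, so that the WT balance turned. In TG mice 10 were called higher and 1 lower. The shares of all genes called in that fit were 21.6% and 23.5%. Got1, the cytosolic aspartate aminotransferase, rose by 1.61 ± 0.30 and 1.93 ± 0.32, and Gatm, the first enzyme of creatine synthesis, fell in WT mice (-1.96 ± 0.59). The mean Gatm level in TG mice was also lower, at 3.17 after saline and 1.44 after cerulein, without a call.

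Of 29 genes of amino acid sensing and mTORC1, 2 rose and 4 fell in WT mice and 3 rose and 0 fell in TG mice, with medians of -0.13 and -0.11. This was 20.7% and 10.3% of the list, beside 14% and 8.2% of all genes. Adjusted for slide, 5 were called higher and 4 lower in WT mice, and 8 higher and 2 lower in TG mice. Of all genes 21.6% and 23.5% were called with that adjustment. Slc38a9 is not counted in this list. Rheb, the GTPase that activates mTORC1, rose by 1.19 ± 0.36 and 1.37 ± 0.39, and Tfe3, a transcription factor of lysosomal genes, by 0.95 ± 0.27 and 1.44 ± 0.29. Rraga, a Rag GTPase, rose by 1.10 ± 0.30 in TG mice, and its mean level in WT mice was 2.33 after saline and 3.04 after cerulein. The folliculin complex genes Fnip2 (-1.36 ± 0.33) and Flcn (-1.12 ± 0.31), the GATOR1 subunit Nprl2 (-0.93 ± 0.25) and the amino acid deprivation kinase Eif2ak4 (-1.13 ± 0.27) fell in WT mice. Their mean levels were also lower after cerulein in TG mice, without a call. The TG saline and TG cerulein means were 0.66 and -0.17 for Fnip2 and 2.37 and 1.46 for Flcn. They were -0.28 and -0.75 for Nprl2 and 1.14 and 0.21 for Eif2ak4.

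Of 14 glutathione genes, which use the cysteine that Slc7a11 helps to supply, 2 rose and 2 fell in WT mice and 2 rose and 0 fell in TG mice (28.6% and 14.3% of the list, beside 14% and 8.2% of all genes). Chac1, counted in both lists, and glutathione synthetase Gss (1.64 ± 0.27 and 1.73 ± 0.29) rose. Gclc, the catalytic subunit of the preceding and rate-limiting step, fell in WT mice (-2.08 ± 0.34, adjusted p = 0.00105 in limma). The mean Gclc level in TG mice was also lower, at 1.98 after saline and 1.03 after cerulein, without a call. Of 19 carriers of other families and their partners, 1 rose and 2 fell in WT mice and 1 rose and 1 fell in TG mice. These shares, 15.8% and 10.5%, were near the 14% and 8.2% of all genes. The lysosomal histidine and peptide transporter Slc15a4 rose by 1.37 ± 0.28 and 1.51 ± 0.30, the mitochondrial aspartate and glutamate carrier Slc25a13 fell (-1.22 ± 0.23 and -0.97 ± 0.25), and the aminopeptidase Anpep fell in WT mice (-1.31 ± 0.35). The mean Anpep level in TG mice was also lower, at 5.5 after saline and 4.46 after cerulein, without a call.

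The second kind of comparison asks whether the transgene went with other transporter levels. TG and WT mice differed in 0 of 49 genes after saline in limma (0.075% of all genes called). At an unadjusted p below 0.05 there were 5 members and 3.22% of all genes. After cerulein they differed in 0 of 49 in limma (0.144% of all genes called), with 5 members and 7.04% of all genes at an unadjusted p below 0.05. The difference between the cerulein responses was called for 0 of 49 members and 0% of all genes in limma, with 0 members and 0.773% of all genes at an unadjusted p below 0.05.

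Slc43a1 (LAT3) was 1 of 2 members called in the mean of both genotype differences, a comparison chosen after seeing the data. Its level was -3.15, -2.96, -3.65 and -2.97 in WT saline and -2.97, -2.89, -2.59 and -4.58 in WT cerulein mice. It was -1.69, -0.94 and -0.79 in TG saline and -0.73, -1.63, -1.06 and -1.86 in TG cerulein mice. All 7 TG arrays lay above all 8 WT arrays. TG and WT groups did not overlap for 9 of the 49 members after saline (6.63% of all genes) and for 2 after cerulein (2.51%). TG exceeded WT by 2.04 ± 0.43 after saline and by 1.94 ± 0.40 after cerulein (4.12-fold and 3.84-fold, adjusted p = 0.184 and 0.102 in limma), neither called. The saline difference was called with the slide as a random block, without slide 2 and with array weights, and the cerulein difference with the random block, with array weights and in the authors' deposited series table. The mean of both was 1.99 ± 0.29 (3.98-fold, adjusted p = 0.00466 in limma). With normexp it was 0.84, still called. This mean called 2 of 49 genes, beside 0.571% of all genes.

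The other gene called in that mean was Slc38a4 (SNAT4), a system A carrier. Its level was -2.72, -2.11, -1.92 and -1.72 in WT saline and -1.64, -1.88, -2.01 and -2.99 in WT cerulein mice. It was -1.3, -0.99 and -1.24 in TG saline and -0.97, -1.15, -0.42 and -1.21 in TG cerulein mice, above all WT arrays. The differences were 0.94 ± 0.33 and 1.20 ± 0.30 (adjusted p = 1 and 0.211 in limma), and their mean 1.07 ± 0.22 was called (adjusted p = 0.0481). That call was made in 6 of 11 other settings. It was lost with normexp (0.6), quantile normalisation, the array median, no filter on dim probes and without slide 2. It was also lost when 1 array was left out, for 12 of the 15 arrays. It remained without WT cerulein replicate 9 or 10 or TG cerulein replicate 16.

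**Figure D4:**
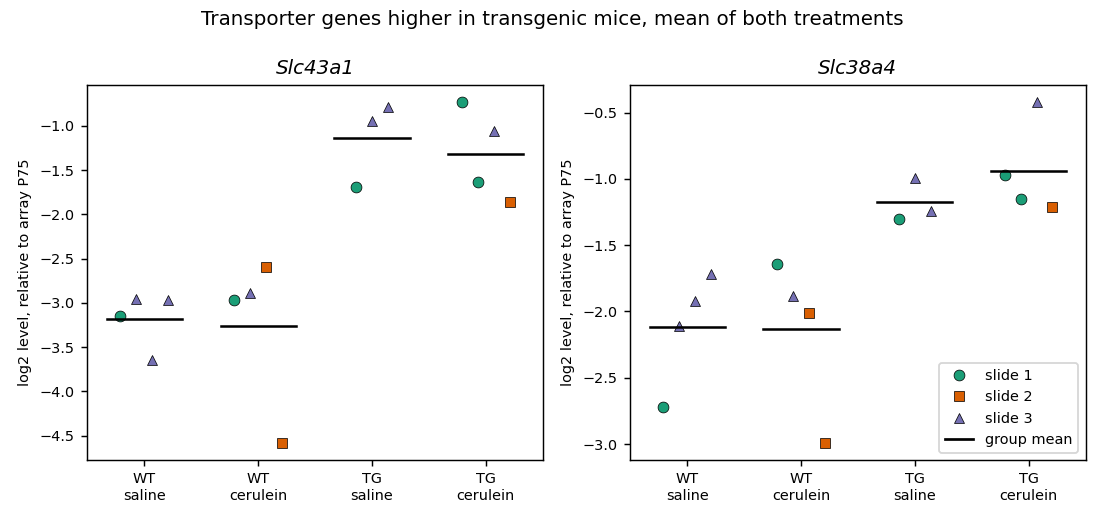
Log2 level relative to the array's 75th percentile (y axis) of Slc43a1 and Slc38a4 on each of 15 arrays in 4 groups (x axis), with symbols for the 3 slides and a line at each group mean. All 7 TG arrays lie above all 8 WT arrays for both genes, from -1.86 to -0.73 for Slc43a1 and from -1.3 to -0.42 for Slc38a4.

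Markers of other cells were read on the same arrays. All 5 fibroblast and stellate cell markers were well above background on all arrays, and their summed log2 level was 5.56 to 6.26 in WT saline, 5.22 to 6.33 in WT cerulein, 6.37 to 7.22 in TG saline and 6.69 to 7.61 in TG cerulein mice, with no overlap between genotypes. Of the neutrophil markers 4 of 5 were tested and none was well above background on all arrays, with summed levels of -2.62 to 0.08, -0.59 to 1.83, 0.67 to 2.31 and 1.71 to 2.87 in the same order. In TG mice 4 were higher after saline, and 3 were higher and 1 lower (-0.71) after cerulein, none called. In the mean of both treatments 2 were called higher. Of the intestinal epithelium markers Vil1 and Lgr5 were tested and Cdx2 and Muc2 were not. The summed level of the former was -2.31 to -1.79 in WT saline, -0.54 to 1.32 in WT cerulein, 0 to 1.39 in TG saline and 1.88 to 3.6 in TG cerulein mice, without overlap of the genotypes within a treatment. Vil1, a structural protein of microvilli, differed by 2.8 ± 0.50 after saline and by 2.5 ± 0.46 after cerulein, neither called (adjusted p = 0.0603 and 0.0507 in limma), and 1 of these 2 markers was called in the mean of both. Lgr5 differed by only 0.13 after saline and by -0.34 after cerulein. Of the 2 markers, only Vil1 was well above background on all 15 arrays. Of 8 islet markers 7 were above 0 after saline and 7 after cerulein (medians 0.53 and 0.49), none called. With the slide as a term 1 was called higher in TG mice after cerulein, and 3 in the mean of both treatments. Other lists were mixed. After saline and after cerulein, 4 and 4 of 5 adipocyte markers and 4 and 2 of 4 endothelium markers were below 0. So were 2 and 2 of 3 macrophage, 1 and 3 of 4 lymphocyte and 3 and 3 of 5 nerve and glia markers. Above 0 were 4 and 5 of 6 duct and 3 and 3 of 3 erythrocyte markers. None in these other lists was called in either comparison. The part of these cells' markers in the levels of Slc43a1 and Slc38a4 was not tested.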

How the data were processed

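Messenger RNA was measured on Agilent one-colour arrays, 15 in all. Per the file headers, the spot intensities that the authors deposited came from the scanner software Agilent Feature Extraction (10.7.3.1, also in the submitters' processing notes), which subtracted background and spatial trends within each array. Flags (0 or 1 per spot, listed as a unit "other") were deposited beside them. A deposited table of the whole series holds the authors' log2 values. How they scaled them is not given in the sources used here, and these values served only as an alternative.

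Spots of a probe were averaged without outlier-flagged spots (105 to 188 per array). Accessions were matched to RefSeq (GRCm38.p6), which named 27235 of 55681 probes. Values are log2 intensity minus the array's 75th percentile, which was 152 to 529 intensity units. Probes well above background on at least 3 arrays were kept (54.9% to 76% of probes were so on an array), and a gene was read from its brightest kept probe. The test was limma's (version 3.58.1, under R 4.3.3; data.table (version 1.17.8) read the files, and figures were drawn with matplotlib 3.10.9), with lmFit and eBayes on 4 group means without covariates, 11 residual and 3.54 prior degrees of freedom, two-sided, adjusted by Benjamini-Hochberg over 17338 genes in each of 5 comparisons. A ± gives the standard error from limma. The scripts were tested on simulated data. Alternatives were normexp background correction, quantile normalisation, the array median, other probe filters, the mean of a gene's probes, the slide as a fixed or random term, leaving out slide 2 or single arrays, array weights, the authors' log2 table and fits of only the groups compared. The files hold median, not mean, spot signals, and normexp used these.

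Members, lists and tests were chosen with earlier results of these data known. Genes named are all members called in at least 1 comparison, 16 transporters picked by symbol, members not detected on any array, and of each other list the 2 called genes with the largest difference per genotype. The means over genotypes and over treatments are 2 comparisons added after seeing the data. Further genes were picked once their values had been seen.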

Additional observations from a re-analysis of the deposited data

Results flagged for a closer look

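In 21 members examined in the 3 groups of 4 arrays (63 tests, of which chance flags about 1 in 20), 2 arrays stood apart by Dixon's test. Slc6a3 was at -5.55 in WT saline replicate 7, while the other WT saline arrays were at -4.06 to -3.83. Slc7a11 was at -1.24 in TG cerulein replicate 13, while the other TG cerulein arrays were at -0.43 to -0.36.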

How the results depend on the processing

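The calls for Slc38a9 in both genotypes and for Slc7a11 and Slc7a3 in TG mice were made in all settings run and with each array of the compared groups left out. The next count covers 29 results on single genes: the members called in each comparison, and Slc43a1 and Slc38a4 between genotypes. Of 649 alternative values, 550 kept direction and side of the threshold, 90 lost the call, 8 gained one, and 1 changed sign: Slc6a3 in the mean of both cerulein responses, -0.18 with normexp. Other members that were not called are outside this count, and several of them changed sign, such as Slc36a4, Slc7a15 and Slc38a6 in WT mice. Of members called after cerulein in WT mice (5), there were 12 with normexp, 9 with quantile normalisation, 2 with the array median, 10 with the slide as a fixed term and 10 as a random block, 20 with array weights and 9 in the series table. In TG mice (6) there were 10 with normexp, 3 with the array median, 11 and 10 with the slide as a fixed term and a random block, 23 with array weights and 3 when only the 2 groups were fitted. TG against WT after saline (0) gave 1 with the slide as a random block, 1 without slide 2 and 8 with array weights. After cerulein (0) it gave 2 with the random block, 1 with array weights and 1 in the series table. The mean of both cerulein responses (12) gave 21 with normexp, 7 with the array median and 27 with array weights. The mean of both genotype differences (2) gave 1 with normexp, quantile normalisation, the array median, no filter, the filter on all 15 arrays and without slide 2, and 7 with array weights. Leaving out 1 array gave 2 (without WT saline replicate 8) to 12 (without WT cerulein replicate 10) in WT and 3 to 7 in TG mice, 9 to 18 for the mean response and 1 to 2 for the mean genotype difference. The cause of these shifts was not tested. Most of these counts stand without the count over all genes in the same setting, so they do not single out the transporters. Over all genes 2424 calls in WT mice became 1179 with the array median and 7601 with array weights, and 1422 in TG mice became 555 and 9662. The array weights stopped before they converged. Normexp moved the median of all genes from -0.06 to -0.23 in WT and -0.2 in TG mice, and the array median to -0.26 in WT mice.

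No paired analysis was possible because the labels number the animals separately and no number is shared between groups. Signal over background limits Slc7a11, Slc43a1 and Slc6a3, which were well above background on 12, 14 and 10 of 15 arrays and whose differences were smaller or turned with normexp.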
